A study of Mus musculus with 6 samples.

Results

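Runx1 peaks were mapped at 7 genes that control how latent TGF-beta is stored and released, or that answer TGF-beta early: Ltbp1, Ltbp2, Ltbp3, Ltbp4, Thbs1, Inhba and Pmepa1. Every peak that touched a RefSeq gene body, widened by 10 kb at both ends, was counted for that gene. These are 7 of 21883 protein-coding genes, and they held 45 of 25052 sham peaks, 107 of 56316 peaks at D14 and 15 of 15009 peaks at D56. The rule uses function and position and no peak value, although the set was chosen with earlier results of these data known.

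Transforming growth factor beta leaves the cell bound to its propeptide, and this latent complex is tethered to the matrix by latent TGF-beta binding proteins (LTBPs). Thrombospondin 1, encoded by Thbs1, can free the ligand from its propeptide. Inhba encodes the beta-A subunit of activin A, a related ligand, and Pmepa1 encodes a TGF-beta-induced membrane protein that holds receptor-activated SMADs back. In lung, the pathway is known for turning fibroblasts into matrix-producing myofibroblasts.

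The cells were GFP-positive lung fibroblasts of Col1a2-CreERT2;mTmG mice, in which an inducible Cre driven by the Col1a2 promoter switches a membrane reporter from red to green, so that cells with a Col1a2 history are marked. There were 3 groups, all of this genotype: sham injury, bleomycin injury labelled D14 and bleomycin injury labelled D56, which the sample titles give without spelling out and which are read here as days 14 and 56. Each group had 1 ChIP library made with a Runx1 antibody and 1 input library, 6 libraries in all, and the sources used here give neither the number nor the age of the mice behind each. Without replicates there was no test between groups and no p-value, and a site bound in more cells cannot be told apart from more binding per cell.

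The ChIP libraries held 48816721 tags (sham), 78744701 (D14) and 49669125 (D56), so D14 was the deepest. Pileup counts the stacked ChIP fragments where a peak is highest, and fold enrichment divides it by the local input background. Both are the authors' values and are scaled per library, so they rank peaks within a list and are not compared in size between lists. Of 6 fibroblast marker genes, 5 had a peak in each library and Lum had none. Immune markers had a peak at 1 (sham), 2 (D14) and 1 (D56) of 3 genes, endothelial markers at 2, 3 and 2 of 3, and epithelial markers at 1, 2 and 0 of 3. Among all protein-coding genes, 60.3% (sham), 73.3% (D14) and 53.7% (D56) had a peak. A peak marks binding and not expression, so these counts do not type the cells.

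Gene start windows that met a peak at D14 alone are shown beside one that met a peak in every library. Ltbp1 has 2 RefSeq starts, and in human the upstream one gives the long protein and the internal one the short protein. RefSeq windows (GRCm38.p6, 250 bases before to 50 after the start) were given for 5 of the 7 genes, as 8 windows in all. Those printed are the Inhba start at chr13:16011601-16011900, plus strand, the upstream Ltbp1 start at chr17:75005279-75005578, plus strand, the internal Ltbp1 start at chr17:75178531-75178830, plus strand, and the Ltbp2 start at chr12:84876442-84876741, minus strand. The internal Ltbp1 window met a peak in every library, but only the D14 peak covered the start. The other 3 windows met a peak at D14 alone, in the longest list. At Inhba the peak met only the end of the window and did not cover the start. Of these 3 D14 peaks, only that at Ltbp1 was among the 15009 strongest of its list. Capitals mark the core RUNX motif TGTGGT.
Inhba start: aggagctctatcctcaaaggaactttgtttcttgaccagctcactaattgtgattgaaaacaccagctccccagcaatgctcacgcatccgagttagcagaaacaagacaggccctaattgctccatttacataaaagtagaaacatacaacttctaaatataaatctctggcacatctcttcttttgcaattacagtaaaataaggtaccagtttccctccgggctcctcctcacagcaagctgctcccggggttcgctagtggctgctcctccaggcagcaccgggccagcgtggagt
Ltbp1 upstream start: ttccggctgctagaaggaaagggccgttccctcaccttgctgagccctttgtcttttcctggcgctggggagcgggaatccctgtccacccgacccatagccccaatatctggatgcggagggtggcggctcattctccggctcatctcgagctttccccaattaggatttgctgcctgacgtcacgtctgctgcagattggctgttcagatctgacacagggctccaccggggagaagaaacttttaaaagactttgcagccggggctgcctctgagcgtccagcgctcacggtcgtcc
Ltbp1 internal start: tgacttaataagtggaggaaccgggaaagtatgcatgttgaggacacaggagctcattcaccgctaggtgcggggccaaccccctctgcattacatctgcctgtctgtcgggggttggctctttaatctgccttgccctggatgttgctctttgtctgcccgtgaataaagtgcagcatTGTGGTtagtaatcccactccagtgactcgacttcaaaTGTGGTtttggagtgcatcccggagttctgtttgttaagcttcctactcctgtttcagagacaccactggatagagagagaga
Ltbp2 start: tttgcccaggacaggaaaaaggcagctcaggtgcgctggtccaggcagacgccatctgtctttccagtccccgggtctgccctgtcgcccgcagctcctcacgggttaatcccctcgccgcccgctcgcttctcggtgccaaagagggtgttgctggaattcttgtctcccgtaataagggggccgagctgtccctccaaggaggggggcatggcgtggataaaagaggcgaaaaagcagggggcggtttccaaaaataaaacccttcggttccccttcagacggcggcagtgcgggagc

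The internal Ltbp1 window holds 2 copies of TGTGGT, beginning 71 and 33 bases before the start. The other 7 windows hold none on either strand (reverse ACCACA). Of 32851 promoter windows of 300 bases, 16.8% hold at least 1 copy and 1.81% hold 2 or more. The internal window also holds 2 copies of the SMAD-type element CAGACA (reverse TGTCTG), which 21.0% of windows hold at least once and 3.03% 2 times or more. None of these copies overlaps a TGTGGT copy. The Ltbp3 window holds 1 CAGACA and 1 AP-1 element TGANTCA (7.81% of windows), the Inhba window holds 1 TATAAA (13.6%), and the SMAD palindrome GTCTAGAC is in none of the 8 (0.213%). A match describes letters and does not mark a bound site, and at the internal Ltbp1 start the summits lay 278, 241 and 212 bases (sham, D14, D56) from the nearer TGTGGT copy.

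All 7 genes had a peak at D14, 6 had one in sham and 6 at D56. Over all protein-coding genes the share with a peak was 60.3% in sham, 73.3% at D14 and 53.7% at D56. Inhba was the gene without sham and D56 peaks. Each of the 7 had a D14 peak lacking a sham overlap, as did 52.5% of protein-coding genes. Every member had more peaks at D14 than in sham, which holds for 51.4% of protein-coding genes, and fewer at D56 than in sham except Inhba, which had 0 in both. Fewer D56 than sham peaks were called at 26.5% of protein-coding genes. Both shares include genes without a peak, which cannot count. Of 16047 genes with a D14 peak, 11237 had more peaks at D14 than in sham. Of 13195 genes with a sham peak, 5791 had fewer at D56 than in sham. The 7 were not matched to other genes on length or peak number.

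The order of the counts followed list length. With each list limited to its 15009 strongest peaks by p, the 7 genes held 22 sham, 19 D14 and 15 D56 peaks, and Ltbp1, Ltbp3 and Thbs1 then had fewer peaks at D14 than in sham. The plot of peak numbers shows both versions.

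**Figure D1:**
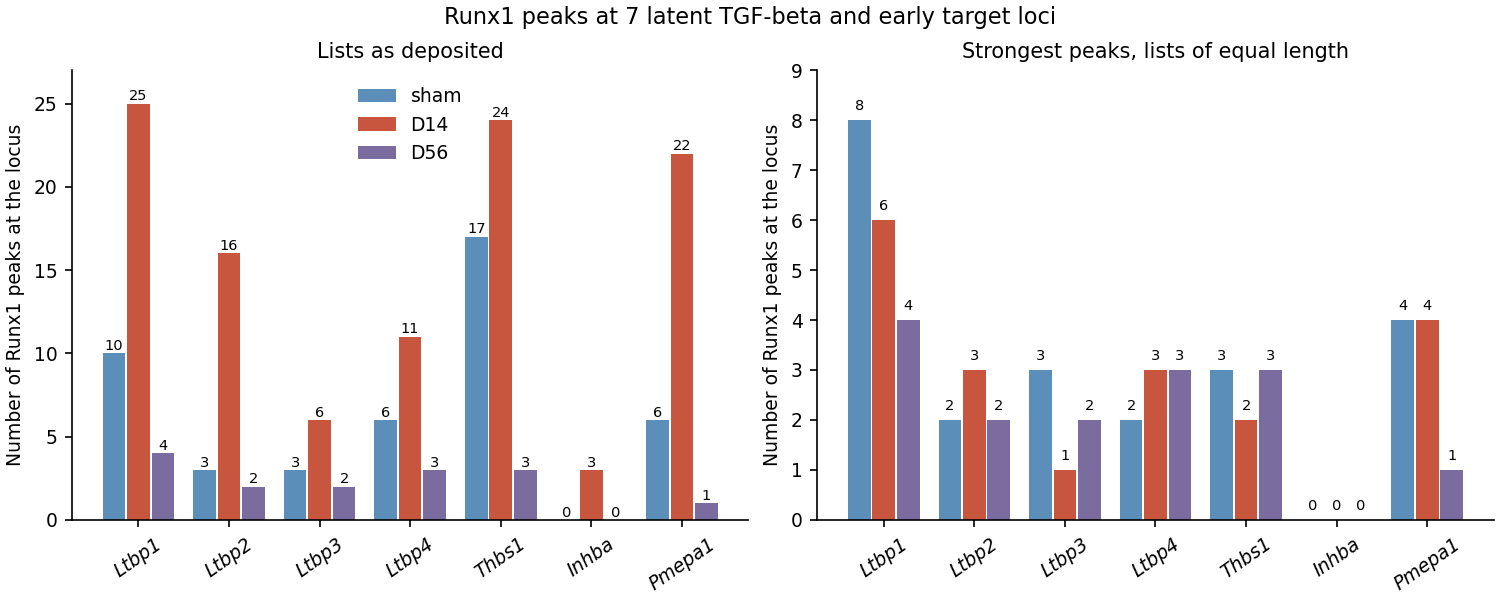
Number of Runx1 peaks at each locus (gene body and 10 kb on either side) in sham, D14 and D56 lists as deposited (left) and in the 15009 strongest peaks of each list (right); 1 library per bar. D14 bars are the tallest at all 7 genes on the left, from 3 at Inhba to 25 at Ltbp1, and at Ltbp2 alone on the right.

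The 7 genes differed from each other in the share of D14 peaks that met no sham peak. Of 107 D14 peaks, 62 met no sham peak (57.9%, exact 95% interval 48.0 to 67.4), beside 58.9% of all D14 peaks, so the 7 genes as a set were near the background. In lists of equal length it was 5 of 19 (26.3%), beside 25.2%. By gene the full-list share was 20.8% at Thbs1 (5 of 24), 45.5% at Ltbp4 (5 of 11), 50% at Ltbp3 (3 of 6), 64.0% at Ltbp1 (16 of 25), 77.3% at Pmepa1 (17 of 22), 81.2% at Ltbp2 (13 of 16) and 100% at Inhba (3 of 3). Thbs1 held the low end: over the other 6 genes the share was 68.7% (57 of 83, 57.6 to 78.4). At Thbs1, peaks covered 44.5% of a 19.3 kb span in sham and 53.9% at D14. An overlap of 1 bp is easily met there and need not mark a shared summit. Peaks in 1 locus share their surroundings, so these intervals cover counting error only.

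Of the LTBP genes, Ltbp1, Ltbp3 and Ltbp4 encode anchors of the latent complex. Ltbp1, on chromosome 17 (75005480 to 75392512), had 10 (sham), 25 (D14) and 4 (D56) peaks across 387 kb. All 4 D56 peaks lay at sites also called in sham and at D14. Along the gene their folds were 3.81, 5.97, 6.28 and 4.77, and the highest lay 245.8 kb into the gene. The upstream start was called at D14 alone: a peak of 583 bp had its summit 41 bp before the start, a pileup of 55 and a fold of 9.35, at or above 76.3% of D14 peaks, and weaker peaks flanked it at folds of 3.49 and 3.72. The nearest sham peak lay 28.9 kb into the gene.

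The internal Ltbp1 start window met a peak in each library, and only the D14 peak covered the start itself. Pileup and fold were 59 and 7.53 in sham, 93 and 14.2 at D14, and 22 and 5.97 at D56. The summits lay 349, 312 and 283 bp before the start in the 3 libraries. At D14 the fold of 14.2 was the highest of the locus. In sham the highest was instead 343.8 kb into the gene (fold 14.8, pileup 75), a site also called at D14 (9.36, pileup 64) and at D56 (4.77, pileup 18). Outside both starts, the locus had 2 sham peaks that were not called at D14, with folds of 5.35 and 4.36.

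Ltbp2, whose protein does not bind latent TGF-beta, carried 3 (sham), 16 (D14) and 2 (D56) peaks (chromosome 12, 84783212 to 84876558). Inside the gene body the numbers were 1, 11 and 0. A D14 peak covered the start (84876348 to 84876683, fold 4.94, pileup 30) with its summit 108 bp before it, and a second peak 481 bp before the start had a fold of 5.86 and a pileup of 57. Neither had a sham or D56 overlap. The highest fold without a sham overlap was 7.45, and 4 such peaks, 5.99 to 29.9 kb inside the start-side gene end, had folds of 7.24 to 7.45.

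The strongest Ltbp2 signals were at the margins of the locus. A site with a fold of 12.8 in sham, 23.8 at D14 and 13.6 at D56 lay 10.1 kb beyond the far end of Ltbp2. Its summit was inside the neighbour Npc2, a cholesterol transport gene, and the peak covered the start of Isca2, an iron-sulphur cluster assembly gene. A second site, 8.7 kb upstream, had a pileup of 44 and a fold of 4.56 in sham, 98 and 12.5 at D14, and 20 and 5.37 at D56. These 2 sites were the only ones of the locus called at D56.

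Ltbp3, which helps its cell secrete latent TGF-beta, had 3 (sham), 6 (D14) and 2 (D56) peaks (chromosome 19, 5740900 to 5758536). A D14 peak covered its start (fold 4.37, pileup 28). A sham peak (6.99, pileup 37) met the end of the start window but began past the start, and no D56 peak met the window. A site about 1 kb into the gene was called in all 3 libraries, with folds of 5.16 in sham, 6.20 at D14 and 4.83 at D56. Another 3 D14 peaks met no sham peak, with folds of 3.81, 6.50 and 6.80. The highest D14 fold of the locus, 16.4, was at the start of the neighbour Znrd2. That site was also called in sham (6.17) and at D56 (5.46).

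Ltbp4, the family member known for its part in elastic fibre assembly, had 6 (sham), 11 (D14) and 3 (D56) peaks (chromosome 7, 27305140 to 27339720). No library had a peak over its upstream start. The paired internal starts carried a peak at D14 (fold 6.24, pileup 38) and in sham (4.25, pileup 25), and none at D56. The strongest site of the locus lay 2.6 kb downstream of them, with a pileup of 90 and a fold of 13.2 in sham, 131 and 18.9 at D14, and 39 and 8.07 at D56. It was called in every library, as were sites with D14 folds of 13.0 and 10.4 (D56 folds of 6.49 and 7.87). Folds ran over 4.40 to 7.16 in the 5 D14 peaks that met no sham peak.

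**Figure D2:**
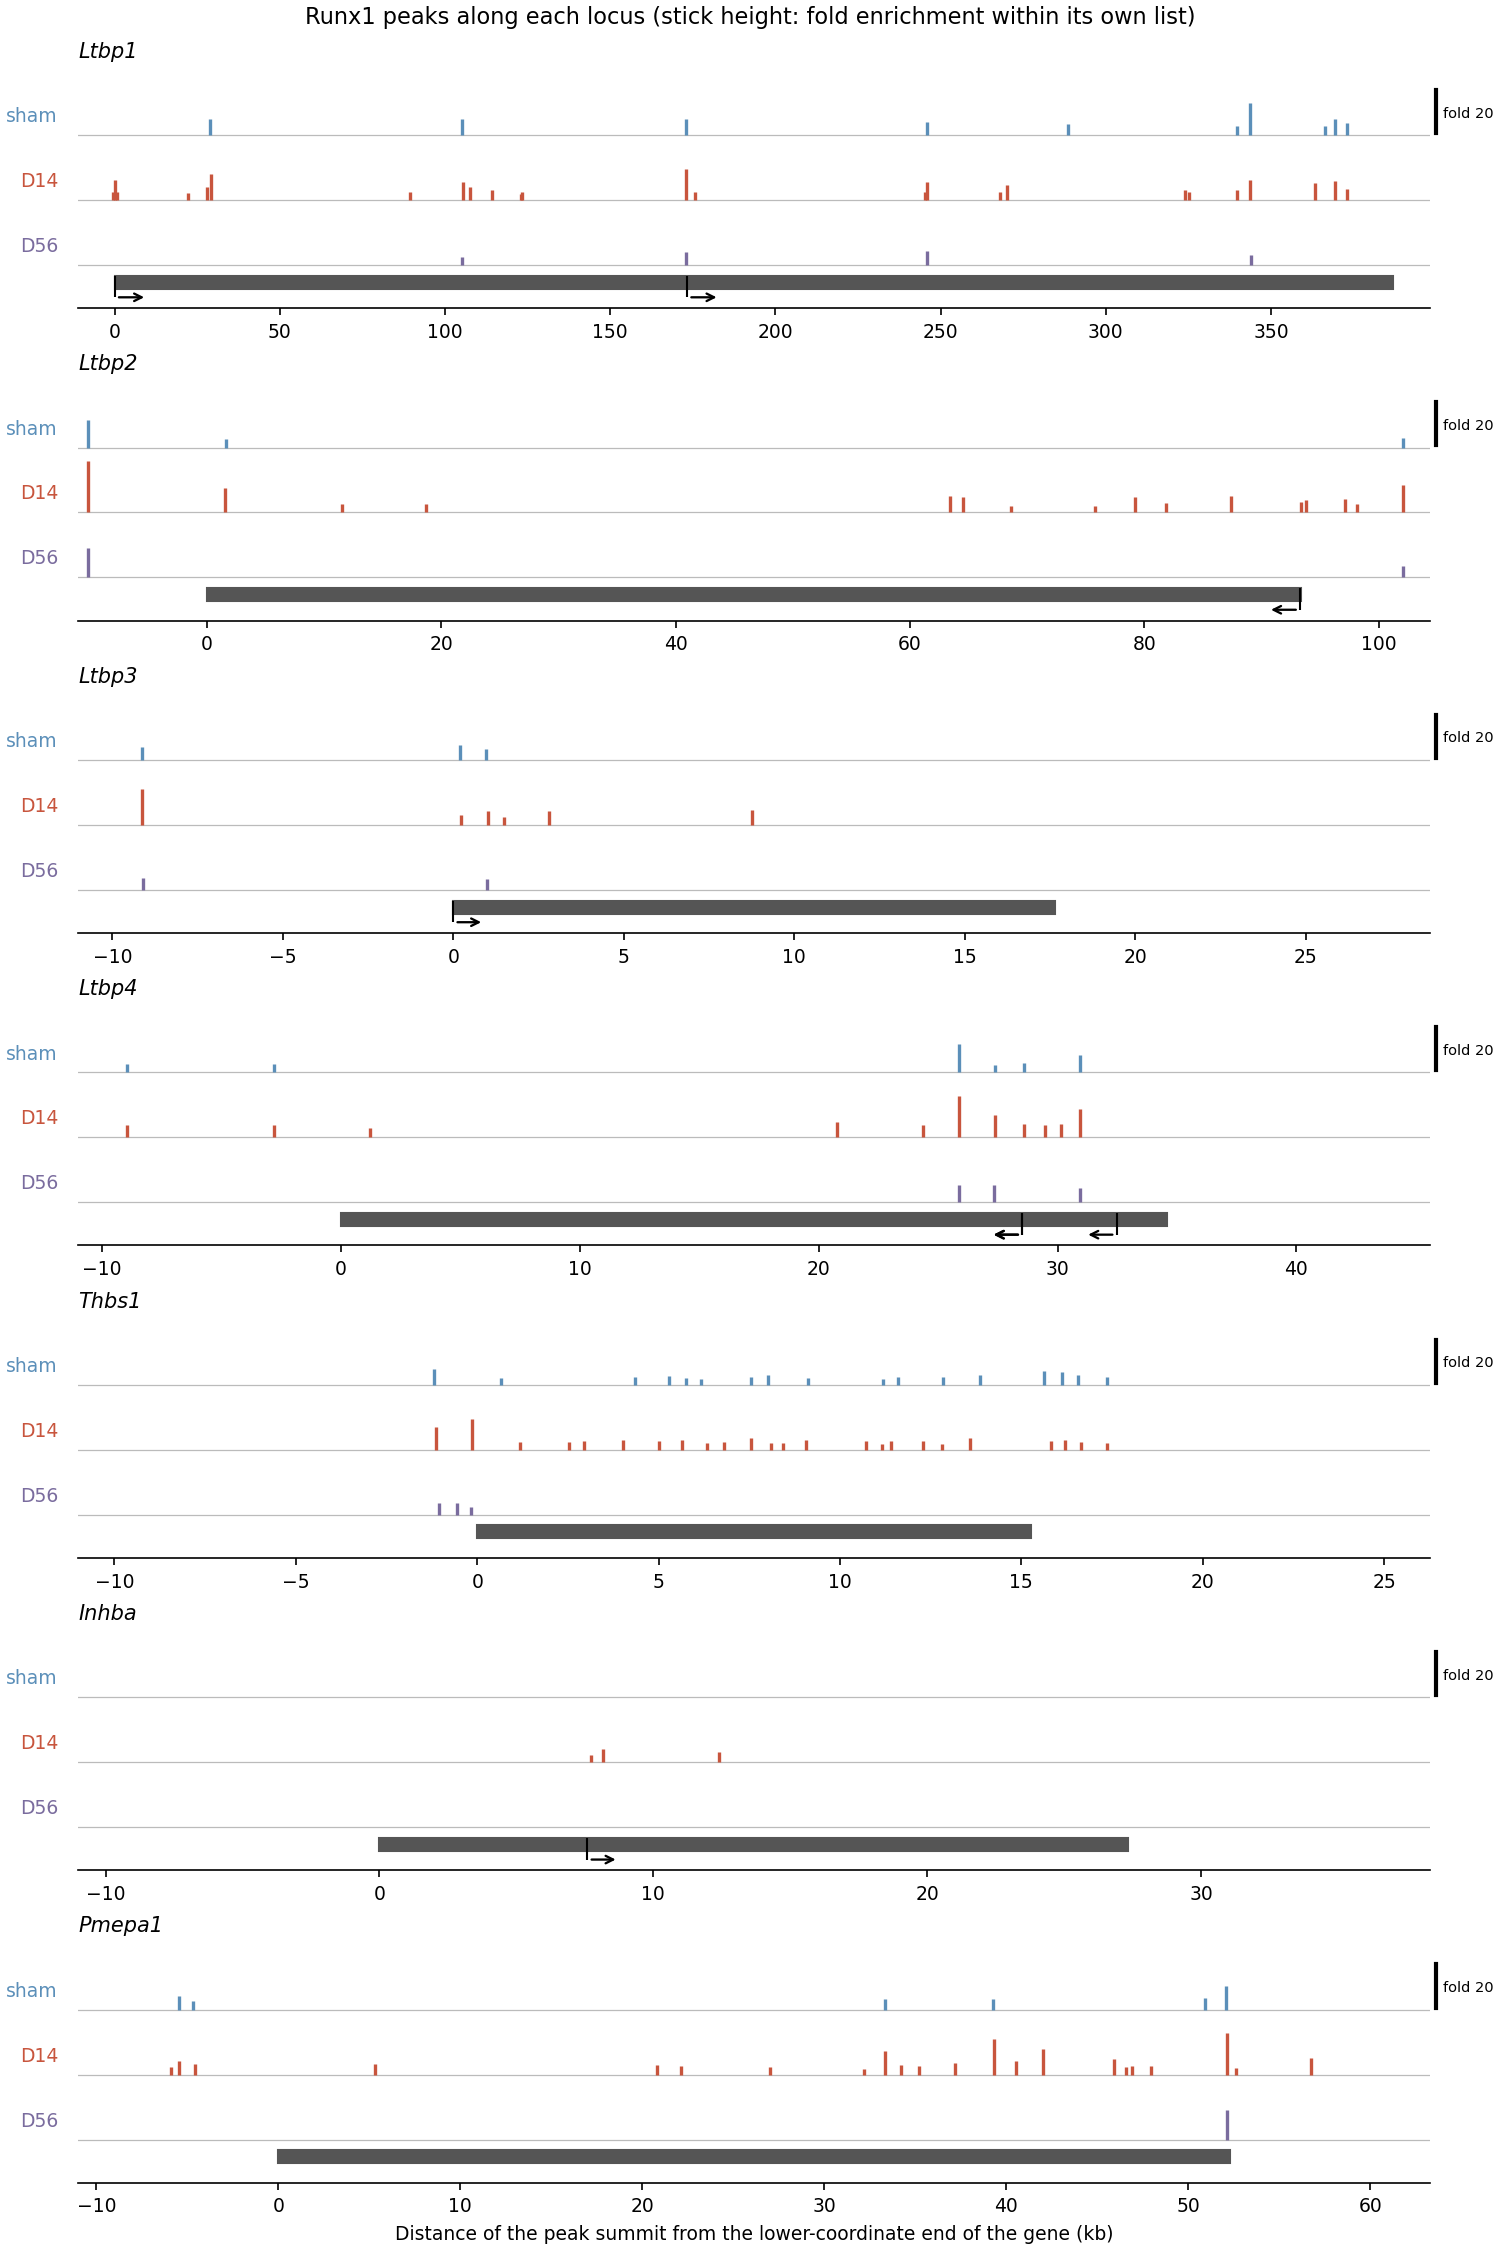
Runx1 peaks along the 7 loci for sham, D14 and D56; each stick stands at a peak's summit, at its distance (kb) from the lower-coordinate end of the gene, and its height is the fold enrichment within its own list, which is not comparable between libraries. Grey bars are gene bodies and arrows are the RefSeq starts in hand. Ltbp1 shows D14 sticks at the upstream start with none in sham or D56, Thbs1 shows a row of low sticks along the gene in sham and D14, and Pmepa1 keeps 1 stick at D56.

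Thbs1, the activator in this set, was lined with peaks along the gene in sham and at D14. The 35.3 kb locus held 17 (sham), 24 (D14) and 3 (D56) peaks, and 13, 19 and 1 of them met the 15.3 kb gene body (chromosome 2, 118111876 to 118127133). Per 10 kb of locus that was 4.82 (sham), 6.81 (D14) and 0.851 (D56) peaks, at rank 18, 5 and 1058 of 21883 protein-coding genes within each list. The peaks spanned 19.3 kb in sham and at D14, with a median gap of 196 bp at D14 and 459 bp in sham.

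The Thbs1 row was made of weak peaks. Past the lower-coordinate gene end, the 22 D14 peaks had folds of 2.54 to 5.67 (median 3.98) and the 16 sham peaks folds of 2.79 to 6.55 (median 3.72). Both medians were below those of all peaks in the same lists, 5.68 at D14 and 5.07 in sham. The local background behind the 22 D14 peaks had a median of 8.27, against 6.24 for D14 peaks at the other 6 genes and 5.99 for all D14 peaks. In sham it was 6.61, against 6.35 at the other 6 genes and 7.26 for all sham peaks. The part of that background in the D14 row was not tested. With peaks under 500 bp apart merged, Thbs1 had 8 peaks at D14 and 8 in sham.

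The lower-coordinate gene end had stronger peaks. In sham 1 peak of 2066 bp covered it (pileup 88, fold 7.45). At D14 2 peaks lay there, with pileups of 92 and 95 and folds of 10.7 and 14.1, the highest of the locus. All 3 D56 peaks lay in the same stretch, with pileups of 18, 20 and 25 and folds of 5.26, 5.18 and 3.76. In each library a peak of this stretch also met the start window of the neighbour Gm13986, a long non-coding RNA gene. Of Thbs1's D14 peaks, 17 of 19 that met a sham peak had no D56 partner, all of them in the row past the gene end.

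Inhba was called at D14 alone, with 3 peaks against 0 in sham and 0 at D56 (chromosome 13, 16004256 to 16031609). A D14 peak without any sham peak at the gene is found at 13.1% of protein-coding genes. The RefSeq start given for Inhba, 16011851, lay inside the gene body and not at its lower-coordinate end. The strongest of the 3 peaks, at 16012245 to 16012552, had a pileup of 48 and a fold of 6.23, at or above 56.4% of D14 peaks. Its summit lay 580 bp past that start. A weaker peak, 16011891 to 16012045, met the end of the printed start window, with its summit 126 bp past the start (pileup 18, fold 3.19). The remaining peak had its summit 4800 bp past the start (pileup 21, fold 4.57), and all 3 peaks met the gene body. None was among the 15009 strongest D14 peaks, and at that list length Inhba had no peak in any library.

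Pmepa1, the early target, had 6 (sham), 22 (D14) and 1 (D56) peaks (chromosome 2, 173224458 to 173276731). Its strongest site was at the upper-coordinate gene end in each library, 170 bp inside it in sham (pileup 65, fold 11.2), 154 bp at D14 (120, 19.4) and 129 bp at D56 (40, 13.8). This was the one Pmepa1 site called at D56, and its D56 fold was at or above 93.1% of D56 peaks and the highest of the 15 D56 peaks at the 7 genes.

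Inside the Pmepa1 gene body, 12 of 17 D14 peaks lay within 20 kb of that end. Sites at 18952 and 12957 bp (D14 summits) from it were called at D14 (folds 11.1 and 16.5, pileups 74 and 102) and in sham (4.79 and 5.18, pileups 30 and 25), and not at D56. The peak 10237 bp from it (pileup 70, fold 12.0) was called at D14 alone, and was the only D14 peak with a fold of 10 or more at the 7 genes without a sham overlap. Another D14-only peak lay 4.45 kb outside the gene (fold 7.83). The other 5 D14 peaks of the gene body met no sham peak and had folds of 2.74 to 5.15. Beyond the other gene end, 3 D14 and 2 sham peaks lay nearer to the neighbour Zbp1.

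**Figure D3:**
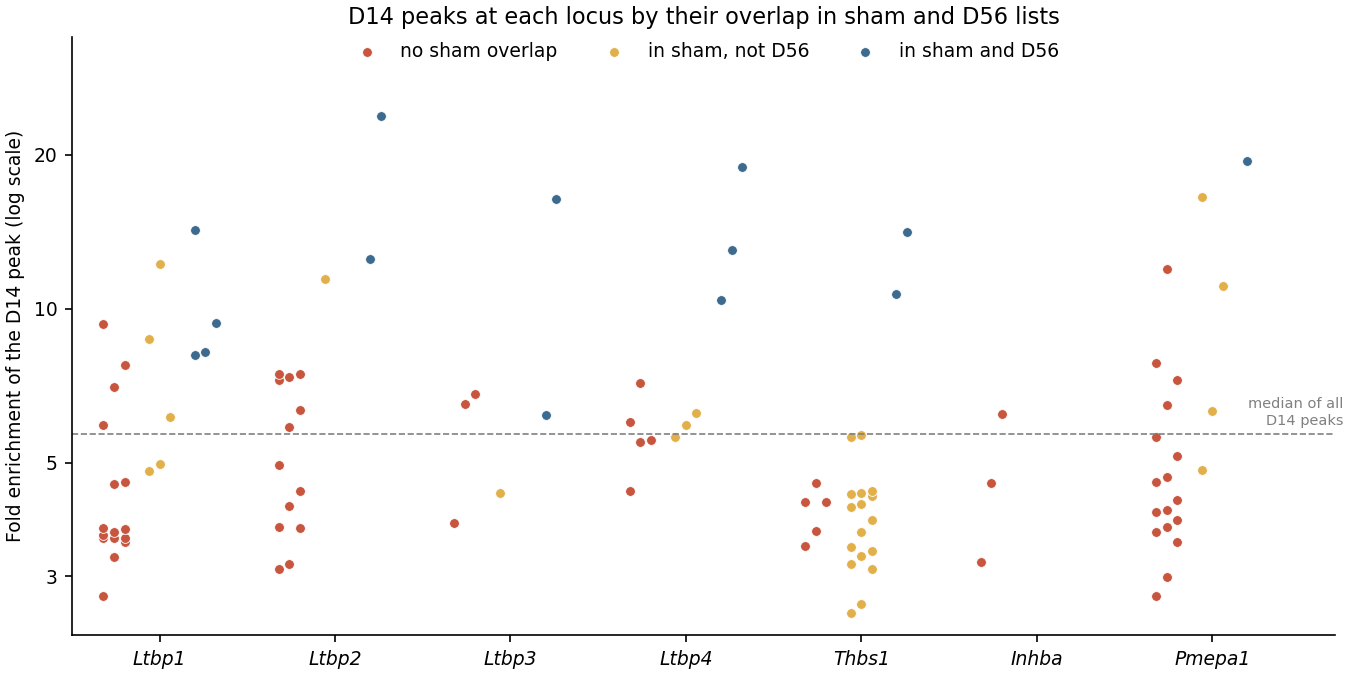
Fold enrichment (log scale) of each of the 107 D14 peaks at the 7 loci, coloured by whether the peak met no sham peak, a sham peak alone, or a sham and a D56 peak; the dashed line is the median of all D14 peaks (5.68). The highest point at each locus but Inhba is a peak met in all 3 lists, and the Thbs1 peaks met in sham alone lie at or below the dashed line.

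Compared within fold classes, the genome's share lay inside the interval of the 7 genes, apart from the class under 5. Without a sham overlap were 1 of 15 D14 peaks with a fold of 10 or more (6.67%, 0.169 to 31.9), beside 9.92% of all, and 22 of 34 with a fold of 5 to 10 (64.7%, 46.5 to 80.3), beside 60.6%. Under a fold of 5 it was 39 of 58 (67.2%, 53.7 to 79.0), beside 83.4%. Without Thbs1 this last share was 34 of 38 (89.5%, 75.2 to 97.1), so the gap rested on the Thbs1 row. In that row peaks lay so densely that an overlap of 1 bp is easily met. Median folds were 4.40 for the 62 D14 peaks that met no sham peak and 5.92 for the 45 that did, beside 4.75 and 9.50 over all D14 peaks.

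**Figure D4:**
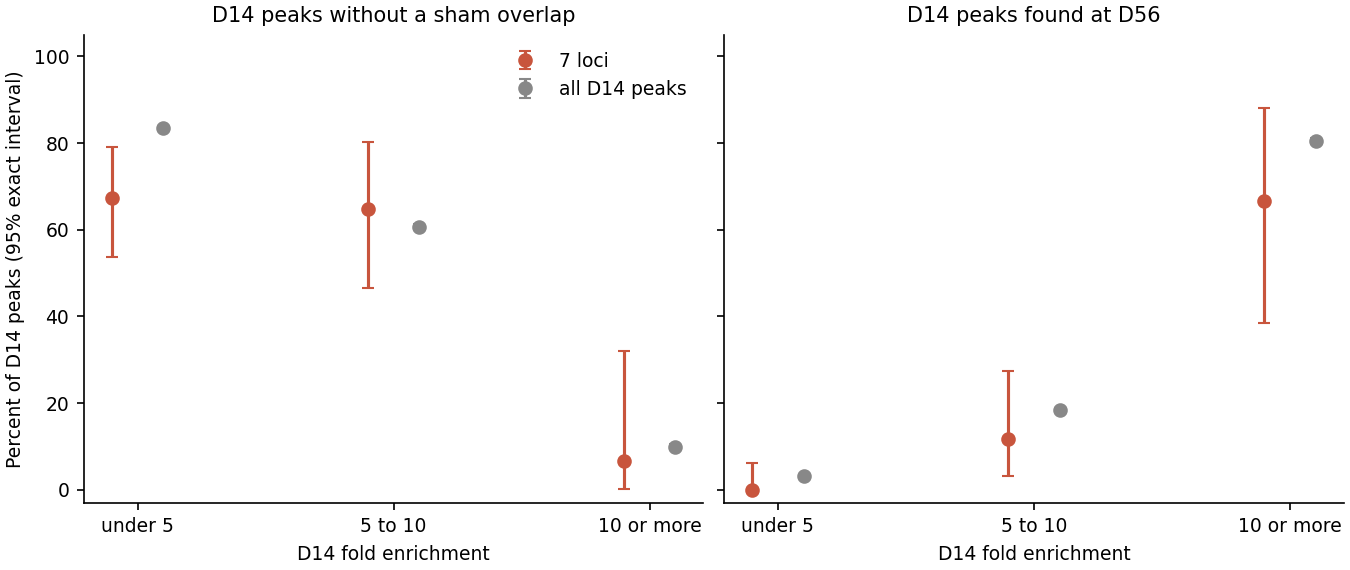
Percent of D14 peaks without a sham overlap (left) and found at D56 (right) in 3 classes of D14 fold enrichment, at the 7 loci and over all D14 peaks, with exact 95% intervals for counting error. The share without a sham overlap is 6.67% in the highest class at the 7 loci, and the share found at D56 is 66.7% there and 0% in the lowest class.

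In the full lists, 14 of 107 D14 peaks met a D56 peak (13.1%, 7.34 to 21.0), beside 25.6% of all D14 peaks. In lists of equal length it was 13 of 19 (68.4%), beside 76.9%. None of the 62 without a sham overlap did, which allows a share of up to 4.84%, and the share over the genome was 1.45%. Of the 45 with a sham overlap, 14 did (31.1%, 18.2 to 46.6), beside 60.2% of all such peaks, and without Thbs1 it was 12 of 26 (46.2%, 26.6 to 66.6). Lists of equal length gave 12 of 14 for this share (85.7%), beside 91.7%. With a fold of 10 or more, 10 of 15 were found (66.7%, 38.4 to 88.2), beside 80.5% of all.

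From the other side, all 15 D56 peaks met a sham peak and a D14 peak (100%, 78.2 to 100). The shares over the genome were 96.4% for sham and 99.4% for D14. Of 45 sham peaks, 13 were found at D56 (28.9%, 16.4 to 44.3), beside 55.7%. Thbs1 held 17 of the 45, and of these only the peak at the lower-coordinate gene end was found at D56. Of the 45 sham peaks, 4 had no D14 overlap (8.89%, 2.48 to 21.2), beside 8.31%. Those 4 were 2 peaks at Ltbp1 and 2 at Thbs1. D56 summits lay a median of 30 bp from the nearest D14 summit and 41 bp from the nearest sham summit.

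Joined across libraries, the peaks formed 103 regions at the 7 genes. D14 alone held 62 of them (60.2%), sham and D14 24 (23.3%), all 3 libraries 13 (12.6%) and sham alone 4 (3.88%), with 0 in D56 alone or in D56 and 1 other library. Over the genome the shares were 56.8%, 14.9%, 23.9% and 3.51%. Thbs1, where an overlap of 1 bp is easily met, held 12 of the 24 regions of sham and D14, and 1 of the 13 in all 3 libraries. Among the 15009 strongest peaks of the D14 list were 19 from these genes, of which 17 met a sham peak of the full list and 13 a D56 peak as well. The 2 without one were the Ltbp1 upstream start and the Pmepa1 site 10237 bp from the gene end.

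Genes around these 7 in the pathway were counted in the same way. The fold given for each, here and below, is its highest D14 fold in the gene body or the 10 kb flanks. Such a peak can lie at a neighbour's start, as at Ltbp2 and Ltbp3, and this was not checked. Of 45 such genes, 40 (sham), 44 (D14) and 37 (D56) had a peak, beside 60.3%, 73.3% and 53.7% of all protein-coding genes. More peaks at D14 than in sham were found at 37 of the 45, beside 51.4% of all. Neither comparison was matched on gene length. Among 10 latent complex partners and anchors, 8 (sham), 9 (D14) and 8 (D56) had peaks, led at D14 by Fn1 (fibronectin, fold 19.0), Tgfb1 (15.6), Emilin1 (15.4) and Fbn1 (fibrillin 1, 10.7). Genes of integrin and protease activation had them at 12, 13 and 10 of 13, led by Itgb1 (22.6), Itgb8 (19.7), Itgb5 (15.6) and Itgav (13.2). Itgb1 and Itgb8 were the 2 genes of the 45 with fewer peaks at D14 than in sham.

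In the activin and follistatin arm 6, 8 and 5 of 8 genes carried peaks, led by the activin antagonist Fstl3 (19.8) and the receptors Acvr2a (18.8), Acvr2b (17.5) and Acvr1b (16.0). All 4 receptor genes had peaks in each library, with the highest D14 folds at Tgfbr1 (24.7), Acvrl1 (13.0), Tgfbr2 (12.9) and Eng (9.18). Early targets and feedback genes had peaks at all 10 genes in each library, led by Bambi (35.2), Skil (26.7), Ski (19.2) and Junb (17.2). The median number of peaks was 6, 16 and 2 (sham, D14, D56) over the 7 genes, against 3, 6 and 2 over the 45 genes and 1, 2 and 1 over all protein-coding genes, without matching on gene length.

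For each of the 7, the pathway gene with the nearest peak numbers in the 3 lists (distance of log2 of the number plus 1, over 3 points) was named. For Pmepa1 it was Ldlrad4, which encodes its close relative, with 7 (sham), 23 (D14) and 2 (D56) peaks. For Inhba it was Inhbb, the other activin beta subunit gene, with the same 0, 3 and 0. Ltbp3 had the same numbers as Tgfb2 (3, 6 and 2), and Ltbp4 was nearest to Tgfb1 (6, 10 and 4). Ltbp1 and Thbs1 were both nearest to Tgfbr3 (12, 22 and 4), the betaglycan co-receptor gene, and Ltbp2 to Itgav (2, 10 and 2). No other gene of the 45 tied with any of these. With 3 numbers per gene this likeness is coarse.

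**Figure D5:**
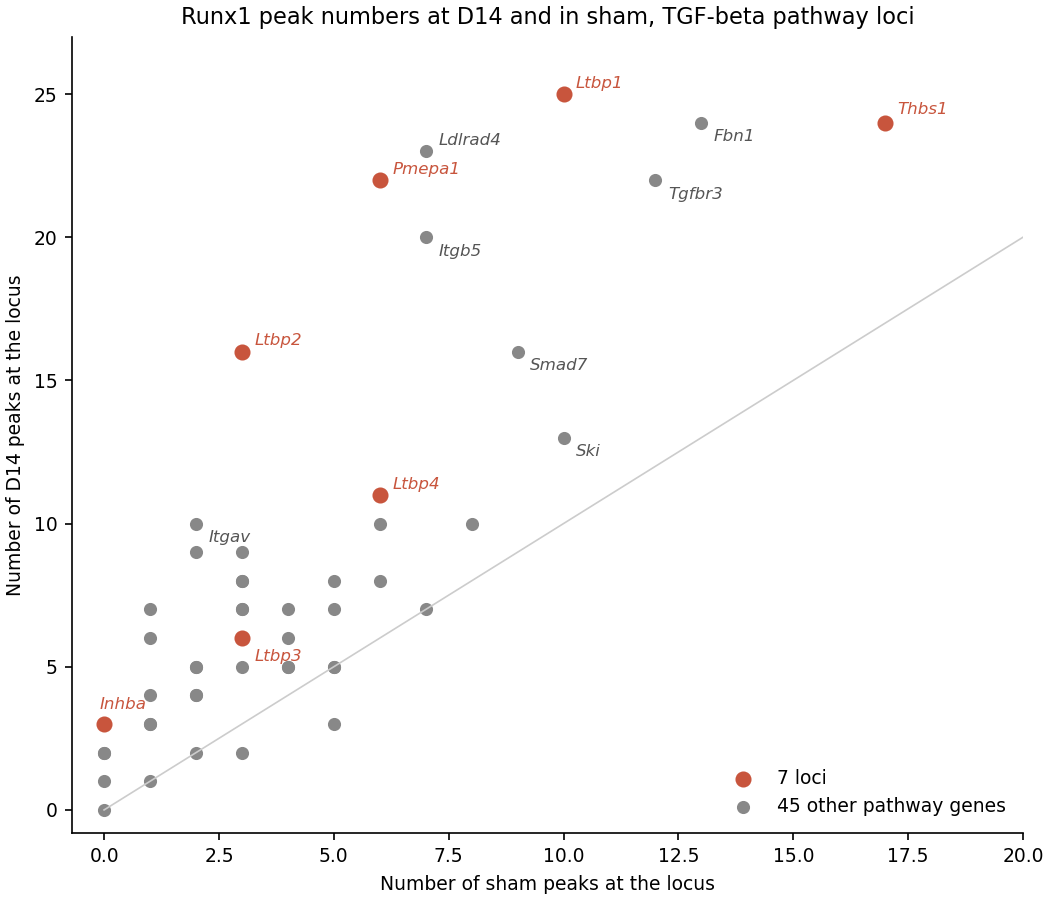
Number of D14 peaks against number of sham peaks at the 7 loci and at 45 other pathway genes; points above the grey line have more peaks at D14 than in sham, and some points lie on each other. All 7 loci lie above the line, and Pmepa1 (22 D14 and 6 sham peaks) lies next to Ldlrad4 (23 and 7).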

How the data were processed

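Peak lists of 3 Runx1 ChIP libraries were used, and inputs entered only as the background of those lists. The build mm10 and the tools MACS2, BWA and SAMtools come from the submitters' processing notes. Per the file headers, MACS 2.0.10.20120913 took every ChIP library with the matching input, scaled the bigger of the pair down, and called peaks at a q-value cutoff of 0.01 without pooling. The authors deposited for each peak a pileup (signal), a fold enrichment (ratio over the local background), and p-values and q-values as −log10. Input libraries held 39609538 tags (sham), 49312043 (D14) and 19949187 (D56), so the scaled depth is lowest at D56. The local background given here is the pileup plus 1, divided by the fold.

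Peaks outside the assembled chromosomes (7 in sham, 15 at D14, 0 at D56) were left out, and overlap meant 1 bp or more. Gene bodies and promoter windows came from RefSeq (GRCm38.p6). All 7 members and all 60 genes of the other lists matched. The gene table holds no exons, so exons and introns were not told apart. Intervals are exact Clopper-Pearson at 95%, and a count of 0 allows up to 3 counts of the total. Named were all 7 members with their strongest peaks with and without a sham overlap, every D56 peak, the peaks at gene starts, and up to 4 genes per pathway list by D14 fold. Genes and lists were chosen with earlier results of these data known. Alternatives were other overlap rules, thresholds, list lengths, merging, flanks and members left out. The overlap step was tested on D14 peaks moved by known distances, and the count of peaks per gene was checked by a second method on the D14 list. The other steps were not tested in this way. Python 3.11.15, pandas 2.3.3, numpy 2.4.6, SciPy 1.17.1 and matplotlib 3.10.9 were used.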

Additional observations from a re-analysis of the deposited data

How the results depend on the processing

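No paired analysis was possible because each condition had 1 library and no value came from a test. Limiting each list to 15009 peaks by p left 19 D14 and 22 sham peaks, with 26.3% of the D14 peaks meeting no sham peak (25.2% over the genome), 68.4% found at D56 (76.9%) and, of those with a sham overlap, 85.7% found at D56 (91.7%). A fold of 5 or more left 49 D14 and 21 sham peaks, with 22.4% found at D56 (33.7% over the genome). Of those with a sham overlap it was 52.9% (73.2%). A reciprocal overlap of 50% gave 69.2% of D14 peaks without a sham overlap (67.2% over the genome) and 60% of D56 peaks found in sham (73.7%). A flank of 50 kb gave 23 D56 and 75 sham peaks. Leaving out each gene in turn gave 28 to 45 sham, 82 to 104 D14 and 11 to 15 D56 peaks, 52.9% to 68.7% of D14 peaks without a sham overlap, 11.5% to 15.3% found at D56, 27.8% to 46.2% of those with a sham overlap found at D56, and 100% of D56 peaks found in sham. The lowest sham count, the highest share without a sham overlap and the 46.2% came without Thbs1. Other settings moved these counts by at most 1.5 times (10 D56 peaks in gene bodies alone) and kept each share inside its interval. Across 8 settings that change the counts, D14 had more peaks than sham in all 8 at Ltbp2 and Ltbp4, in 7 at Ltbp1, Inhba and Pmepa1, and in 6 at Ltbp3 and Thbs1. It had fewer at Ltbp1, Ltbp3 and Thbs1 in lists of equal length, and 21 against 22 at Ltbp3 with the flank of 50 kb. The setting without peaks nearer to another protein-coding gene, and the alternatives for the D14 peaks with a sham overlap found at D56, were added after the data were seen. The D56 input was the shallowest, and the part of depth in the calls was not tested. A site without a peak was not called at this depth and is not shown to be unbound.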
